A study of Sus scrofa with 16 samples.

Results

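NUCB2, the gene of nucleobindin 2, was followed through both muscles and both feeding levels of a pig study. The members were all probe sets with NUCB2 as their only gene symbol in the platform annotation. There was 1, among 24123 probe sets in all and 10099 with a single symbol, which stand for 6765 genes. The gene was chosen by its log2 values between feeding levels and muscles in these arrays, so those values are described here without a test. Differences by sex played no part in the choice and were tested.

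Nucleobindin 2 is a secreted and Golgi-resident calcium-binding protein with EF-hand domains and a signal peptide. Prohormone convertases can cut it to release nesfatin-1, an N-terminal peptide that lowers food intake when given into the rat brain. In rats the gene is transcribed in the hypothalamus, stomach, pancreatic islets, fat and muscle, and its mRNA in hypothalamus and stomach is known to fall with fasting. The arrays measured mRNA, and neither the protein nor its cleavage.

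The samples were psoas major, a loin muscle, and diaphragm, the main breathing muscle, of 8 Iberian pigs slaughtered at 211 days. In the restricted group feed was cut by 20%, and it held animals 2 and 3, both male, and animals 5 and 8, both female. The high feeding group held animals 1 and 4, both male, and animals 6 and 7, both female. Each animal gave 1 Affymetrix array per muscle, 16 in all. All animals had the same pelleted diet up to the restriction, whose start is not given in the sources used here. Every array is of whole muscle, in which fewer cells of a type and less RNA per cell cannot be told apart. Among 11 skeletal muscle markers 8 were on the array, and all 8 were measured, including CKM, DES and TTN. Values are log2 expression as deposited, a step of 1 being 2-fold, and a probe set was tested if at or above 4 in at least 4 arrays, which 11467 were. NUCB2 was above 4 on all 16 arrays, with a lowest value of 4.69 and a highest of 5.87.

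In psoas NUCB2 was lower in the restricted animals than in those at high feeding. In restricted psoas it measured 4.69 in animal 2, 4.92 in animal 3, 4.91 in animal 5 and 4.84 in animal 8. In psoas at high feeding it measured 5.71 in animal 1, 5.87 in animal 4, 5.55 in animal 6 and 5.54 in animal 7. The highest restricted value lay below the lowest high-feeding value, so the groups did not overlap. The group means were 4.84 ± 0.11 under restriction and 5.67 ± 0.16 at high feeding (log2, SD, n = 4 each). The log2 difference, restricted minus high with sex as a covariate, was -0.83 ± 0.12 (SE), a level 1.77-fold lower. Every restricted psoas array lay below every high-feeding one at 2.56% of tested probe sets, and the groups did not overlap in either direction at 4.98%. At 82 of the 11467 the psoas difference was more negative than that of NUCB2.

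In diaphragm the difference had the same sign and the groups overlapped. Restricted diaphragm measured 4.98 in animal 2, 5.04 in animal 3, 4.97 in animal 5 and 5.24 in animal 8. Diaphragm at high feeding measured 5.19 in animal 1, 5.38 in animal 4, 5.33 in animal 6 and 5.87 in animal 7. Animal 8 of the restricted group lay above animal 1 of the high group, and animal 7 stood highest. The means were 5.06 ± 0.12 under restriction and 5.44 ± 0.29 at high feeding (SD, n = 4 each). The log2 difference was -0.39 ± 0.15 (SE), or 1.31-fold lower, and 740 probe sets had a more negative one. Without animal 7 it was -0.26. Restricted and high-feeding diaphragm arrays did not overlap, in either direction, at 4.88% of tested probe sets, 2.69% with restricted arrays the lower, and NUCB2 was not among them.

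**Figure D1:**
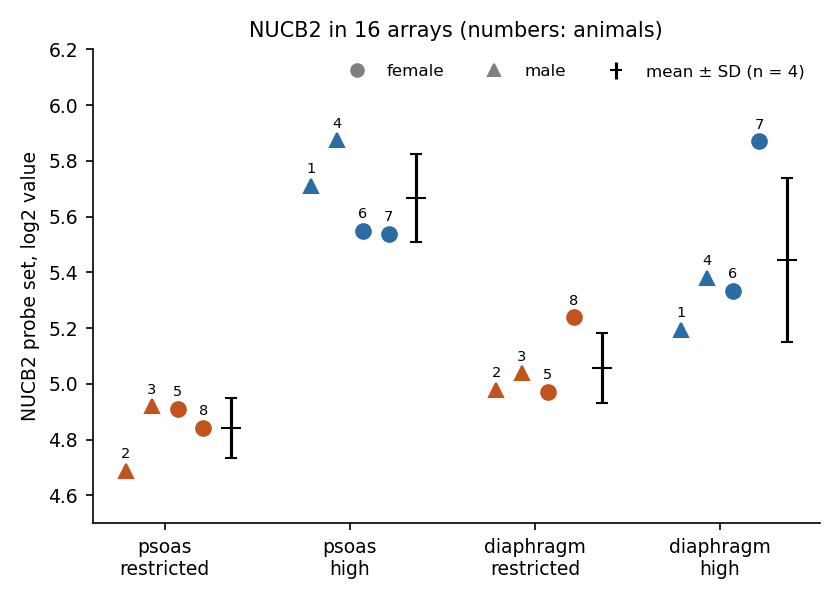
NUCB2 log2 value (vertical axis) on each of the 16 arrays by muscle and feeding level, circles for females and triangles for males, numbered by animal, with the mean and SD of each group of 4 as a bar. Restricted psoas arrays lie between 4.69 and 4.92, below all psoas arrays at high feeding (5.54 to 5.87), while in diaphragm the restricted (4.97 to 5.24) and high (5.19 to 5.87) ranges overlap.

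Over both muscles, each animal taken as the mean of its arrays, restricted animals ranged from 4.83 to 5.04 and high-feeding animals from 5.44 to 5.70. The means were 4.95 ± 0.09 under restriction and 5.56 ± 0.13 at high feeding (SD, n = 4 animals each), and the log2 difference was -0.61 ± 0.10 (SE), 1.52-fold lower. Every restricted animal lay below every high-feeding animal, as at 3.31% of tested probe sets. By limma, 0 of 11467 probe sets passed an adjusted p of 0.05 for feeding over both muscles, with 1451 at an unadjusted p under 0.05 (833 lower and 618 higher under restriction). Within psoas and within diaphragm 0 probe sets passed as well, with 1291 and 1101 at an unadjusted p under 0.05. The share called was 0% in each of these comparisons. The median difference of all tested probe sets was -0.02 over both muscles, with NUCB2 at -0.61.

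The sign of the feeding difference was the same in both sexes. In psoas, the restricted pair minus the high-feeding pair was -0.67 in females and -0.99 in males (log2, 2 animals in each group). In diaphragm it was -0.50 in females and -0.28 in males. The female value was the smaller in psoas and the larger in diaphragm, each from 2 animals against 2. No test of feeding by sex was run.

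The order of the 4 group means was psoas at high feeding (5.67), diaphragm at high feeding (5.44), restricted diaphragm (5.06) and restricted psoas (4.84). Psoas and diaphragm at high feeding overlapped, and so did the 2 diaphragm groups. Restricted psoas (4.69 to 4.92) lay wholly below restricted diaphragm (4.97 to 5.24), as at 8.28% of tested probe sets.

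The difference between the muscles had no common sign across feeding levels. In restricted animals psoas minus diaphragm was -0.29 in animal 2, -0.12 in animal 3, -0.06 in animal 5 and -0.40 in animal 8. At high feeding it was 0.52 in animal 1, 0.49 in animal 4, 0.22 in animal 6 and -0.33 in animal 7. Psoas was thus the lower muscle in 4 of 4 restricted animals and the higher in 3 of 4 animals at high feeding. Psoas was below diaphragm in all 4 restricted animals at 19.6% of tested probe sets. The mean of psoas minus diaphragm was -0.22 ± 0.15 in restricted animals and 0.22 ± 0.39 at high feeding (SD, n = 4 each), a difference of -0.44 ± 0.19 (SE). Of the test for such a dependence of the muscle difference on feeding, limma called 0 of 11467 probe sets, a share of 0%, with 696 at an unadjusted p under 0.05.

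Pooled over feeding levels, NUCB2 averaged 5.25 ± 0.46 in psoas and 5.25 ± 0.29 in diaphragm (SD, n = 8 arrays each). The pooled log2 difference, psoas minus diaphragm, from a fit without the animal as a block, was 0.0033 ± 0.11 (SE). Its sign turned when animal 1 (-0.07), animal 4 (-0.07) or animal 6 (-0.03) was left out. By comparison, 27.0% of tested probe sets were called between the muscles, 14.6% higher and 12.4% lower in psoas. Psoas held the wider range, 4.69 to 5.87 against 4.97 to 5.87 in diaphragm.

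**Figure D2:**
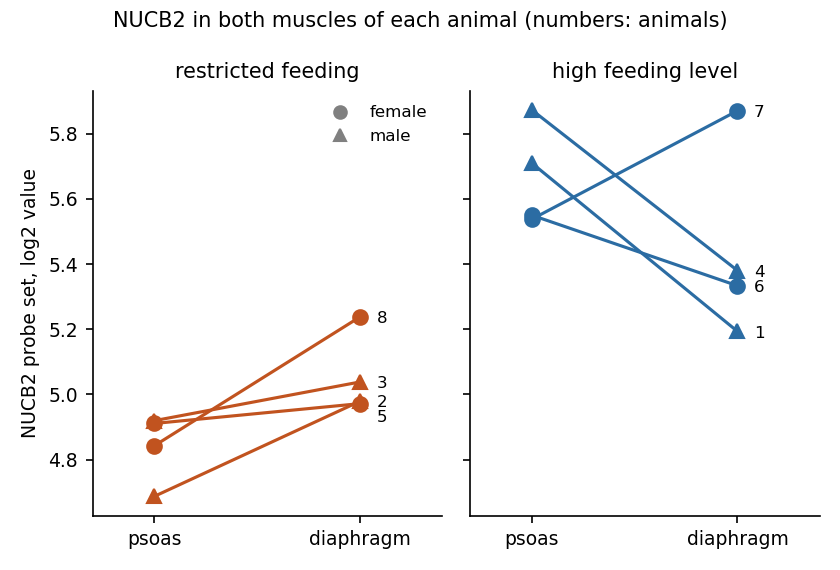
NUCB2 log2 value (vertical axis) in psoas and diaphragm, joined by a line for each animal, with restricted animals on the left and high feeding on the right; circles are females and triangles males. The 4 restricted lines run upward to diaphragm, and 3 of the 4 high-feeding lines run downward, animal 7 (-0.33) being the exception.

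Sex, which the choice of the gene did not use, was tested. Animal means of NUCB2 were 4.94, 5.04, 5.44 and 5.70 in females 5, 8, 6 and 7, and 4.83, 4.98, 5.45 and 5.63 in males 2, 3, 1 and 4. Within each sex the restricted pair was the lower, and the sexes overlapped throughout. The log2 difference, female minus male, was 0.06 ± 0.10 (SE, limma adjusted p = 0.907, n = 4 animals each), and 0.183% of probe sets were called for sex, 0.0959% higher and 0.0872% lower in females. That was 21 probe sets, and 39 with the animal as a block. Psoas minus diaphragm was -0.14 ± 0.28 in females and 0.15 ± 0.42 in males (SD). That difference, -0.29 ± 0.19 (SE), did not pass (limma adjusted p = 0.629), and 0 of 11467 probe sets did, with 1161 at an unadjusted p under 0.05. It ran from -0.41 without animal 5 to -0.13 without animal 7.

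The RNA quality sign that moved with NUCB2 in diaphragm was the actin control. The 3' minus 5' difference of its probe sets, which grows as RNA is degraded or copied incompletely, was 4.07 to 4.33 in the diaphragm of animals 1, 2, 3 and 5. In the diaphragm of animals 4, 6, 7 and 8 it was 3.35 to 3.49. The first set held 3 restricted animals and 1 at high feeding, the other 1 restricted and 3 at high feeding. Diaphragm NUCB2 was 4.97 to 5.19 in the first set and 5.24 to 5.87 in the other. The share of tested probe sets that separate these sets was not counted. Within animals 1, 2, 3 and 5 the diaphragm values averaged 4.997 under restriction and 5.19 at high feeding, a difference of -0.20. Within animals 4, 6, 7 and 8 they were 5.24 and 5.53, a difference of -0.29. With the actin value as covariate the diaphragm difference was -0.28.

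Psoas showed no such split. There the actin difference was 3.29 to 3.71 in animals 1, 2, 3 and 5 and 3.07 to 3.85 in the others. The psoas feeding difference of NUCB2 was -0.87 within the first set, -0.81 within the second, and -0.82 with actin as covariate. Each set had 1 animal at one of the feeding levels, and the sets follow the actin values of diaphragm. The part of RNA quality in the NUCB2 values of either muscle was not tested.

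**Figure D3:**
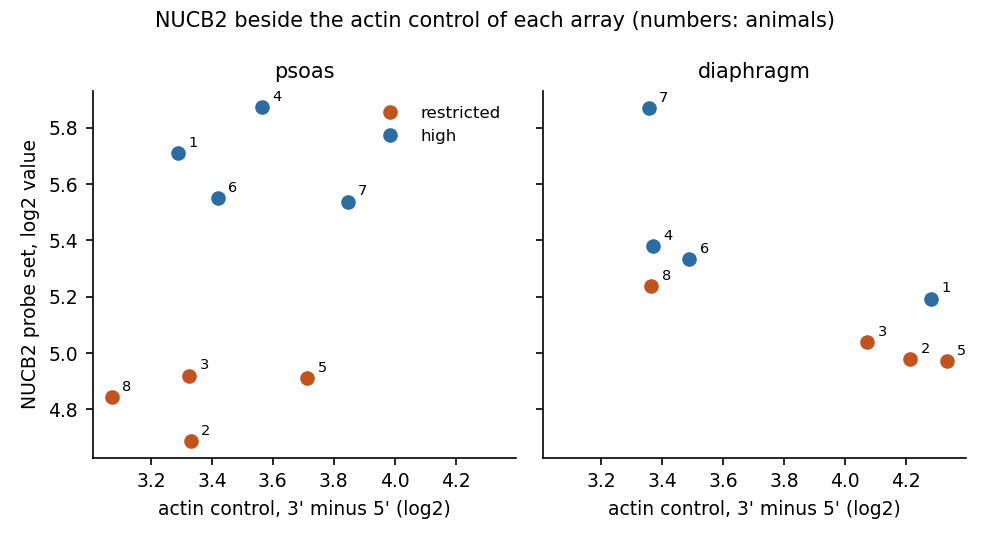
NUCB2 log2 value (vertical axis) against the 3' minus 5' log2 difference of the actin control (horizontal axis) on each array, psoas left and diaphragm right, coloured by feeding level and numbered by animal. In diaphragm the arrays of animals 1, 2, 3 and 5 stand at 4.07 to 4.33 on the actin axis with NUCB2 at or below 5.19, and in psoas restricted and high-feeding arrays separate at similar actin values.

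Markers of other cell types were set beside NUCB2. Adipocyte markers (4 of 8 tested, ADIPOQ, FABP4, LPL and CFD) summed to 11.3 to 11.8 in restricted psoas and 11.0 to 11.8 in psoas at high feeding (log2 of the summed linear level). In diaphragm they summed to 12.3 to 12.7 under restriction and 12.0 to 12.7 at high feeding. Hepatocyte markers (7 of 7 tested) summed to 8.02 to 11.4 in restricted diaphragm and 9.04 to 10.8 at high feeding, and to 7.11 to 7.85 and 6.93 to 7.61 in restricted and high-feeding psoas. Endothelial markers (5 of 6) summed to 10.1 to 10.4 in restricted psoas and 9.87 to 10.5 at high feeding, and to 10.6 to 11.0 and 10.8 to 11.2 in restricted and high-feeding diaphragm. All these ranges overlapped between feeding levels. Of the 7 hepatocyte genes 6 had a negative feeding difference in diaphragm, with a median of -1.24, against 2711 of 4570 other genes and a median of -0.04. In psoas 2 of the 7 were negative, with a median of 0.12, and the group means of all but APOA1 lay below 4. Immune markers on the array were 5 of 8, of which PTPRC, ITGAM and CD3E were below 4 on every array, as was the adipocyte marker CIDEA. No marker of the 8 cell type lists was called for feeding, where 0% of probe sets were, and their part in the NUCB2 values was not tested.

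The paralog NUCB1, a Golgi calcium-binding protein of the same family, was close between feeding levels. It measured 6.82 to 7.53 in restricted psoas and 7.15 to 7.44 in psoas at high feeding, and 6.95 to 7.55 and 7.06 to 7.65 in restricted and high-feeding diaphragm. The ranges overlapped in both muscles. The log2 difference over both muscles was -0.17 ± 0.15 (SE, limma adjusted p = 0.654). It was 0.05 once the split into animals 1, 2, 3 and 5 and the rest entered the fit, and -0.26 to -0.02 with 1 animal left out. Of the processing enzymes, the convertases PCSK1 and PCSK2, which cut prohormones, stayed below 4 on all arrays (at most 2.49 and 2.77), as did PCSK7 (at most 3.21). The convertase inhibitor PCSK1N and the PCSK2 chaperone SCG5 were also below 4 throughout. PAM, which amidates peptide hormones, was the only other tested gene among the 8 of 12 listed that the array held. It differed by -0.04 ± 0.18 with feeding (adjusted p = 0.950) and fell by 0.65 in psoas relative to diaphragm (limma adjusted p = 0.0047). Leaving out animal 1 or 2 turned the sign of its feeding difference (0.14 and 0.06).

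Among genes whose proteins are reported to bind nucleobindins in other species, 7 of 9 were on the array and 5 were tested. None passed for feeding, 4 had a negative difference, and the median was -0.09. Of all 4570 other genes 2790 were negative, with a median of -0.05. PTGS1, the constitutive cyclooxygenase, had the largest at -0.80 ± 0.22 (SE, limma adjusted p = 0.278). It measured 2.84 to 4.25 in restricted psoas and 4.42 to 4.60 in high-feeding psoas. In diaphragm it measured 2.96 to 4.35 under restriction and 4.37 to 4.87 at high feeding. The restricted values lay partly below 4, and the groups did not overlap in either muscle. Such separation held at 4.98% of tested probe sets in psoas and 4.88% in diaphragm, and the share for both was not counted. TNFRSF1A, the tumour necrosis factor receptor whose shedding involves NUCB2 in human cells, differed by -0.29 ± 0.19 (adjusted p = 0.557). NDN, the growth suppressor necdin, differed by 0.22 ± 0.11 (adjusted p = 0.433), and the G protein subunit GNAI2 by -0.09 ± 0.13 (adjusted p = 0.791). With 1 animal left out TNFRSF1A ran from -0.48 to -0.12, NDN from 0.14 to 0.31 and GNAI2 from -0.18 to -0.0036.

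The calcium-binding and folding proteins of the endoplasmic reticulum and Golgi, the compartments nucleobindins pass through, held no gene that passed for feeding. Of 17 listed genes 12 were tested, 11 had a negative feeding difference, 0 were called by limma and 4 had an unadjusted p under 0.05. The median was -0.12, against -0.05 over all other genes, of which 2790 of 4570 were negative. HSP90B1, the chaperone GRP94, measured 8.98 to 9.48 in restricted psoas and 9.54 to 10.1 in psoas at high feeding. In diaphragm it measured 9.09 to 9.30 under restriction and 9.23 to 10.1 at high feeding, so that the psoas groups stood apart and the diaphragm groups overlapped. Psoas groups did not overlap, in either direction, at 4.98% of tested probe sets, 2.56% with restricted arrays the lower. The HSP90B1 difference was -0.49 ± 0.13 (SE, adjusted p = 0.278), with -0.67 at its other probe set. The disulfide isomerase PDIA4 differed by -0.45 ± 0.09 (adjusted p = 0.278), with -0.10 at its other probe set, where psoas alone gave 0.16. The chaperone HSPA5 (BiP) differed by -0.29 ± 0.11 and the lectin chaperone CANX by -0.26 ± 0.10 (adjusted p = 0.353 for both), and CANX had a further probe set at 0.10 and another at -0.20.

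The unfolded protein response, which raises such chaperones, held none either. Of 14 listed genes 7 were tested, 6 were negative, 0 were called and 3 had an unadjusted p under 0.05, with a median of -0.13. Over all other genes 2790 of 4570 were negative, with a median of -0.05. XBP1, a transcription factor of that response, measured 8.56 to 8.90 in restricted psoas and 9.05 to 9.29 in psoas at high feeding. In diaphragm it measured 8.51 to 8.85 under restriction and 8.92 to 9.21 at high feeding. The groups thus did not overlap in either muscle. Such separation held at 4.98% of tested probe sets in psoas and 4.88% in diaphragm, and the share for both at once was not counted. The XBP1 difference was -0.36 ± 0.09 (SE, limma adjusted p = 0.278). CRELD2 differed by -0.40 ± 0.16 (adjusted p = 0.374) and the secreted factor MANF by -0.35 ± 0.11 (adjusted p = 0.310). ATF4, the factor of the amino acid response, differed by -0.13 ± 0.13 (adjusted p = 0.689), with 0.19 at its other probe set, and rose by 0.52 in psoas relative to diaphragm (adjusted p = 0.0023). With 1 animal left out the feeding difference ran from -0.51 to -0.24 for CRELD2 and from -0.24 to -0.05 for ATF4.

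Of 25 hormones and receptors of appetite and energy balance, 21 were on the array and 6 were tested. The leptin receptor LEPR, POMC, MC4R, CARTPT, ghrelin (GHRL) and its receptor GHSR stayed below 4 on all arrays. None of the 6 passed for feeding, with 3 negative and 3 positive differences. Myostatin, MSTN, an inhibitor of muscle growth, had the largest at 0.99 ± 0.33 (SE, limma adjusted p = 0.321), opposite in sign to NUCB2, with 1.18 at its other probe set and 0.65 to 1.22 with 1 animal left out. The secreted factor METRNL differed by -0.65 ± 0.23 (adjusted p = 0.339) and rose by 1.02 in psoas relative to diaphragm (adjusted p = 0.0026). ADIPOQ, the adipocyte hormone adiponectin, differed by -0.35 ± 0.53 (adjusted p = 0.811), a value that was 0.11 without animal 7. ADIPOR1, a receptor of adiponectin, differed by 0.07 ± 0.08 (adjusted p = 0.717).

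Insulin and AMPK signalling, which nesfatin-1 affects in rodents, had 20 of 31 listed genes on the array and 10 tested. None passed for feeding, 7 were negative, and the median was -0.12, against 2790 of 4570 other genes negative and a median of -0.05. AKT1, a kinase of the insulin pathway, differed by -0.53 ± 0.12 (SE, limma adjusted p = 0.278). It measured 5.87 to 6.73 in restricted psoas and 6.39 to 6.93 at high feeding, with overlap. In diaphragm it measured 5.96 to 6.59 under restriction and 6.61 to 6.999 at high feeding, without overlap. Diaphragm groups did not overlap, in either direction, at 4.88% of tested probe sets, 2.69% with restricted arrays the lower. The coactivator PPARGC1A (-0.31 ± 0.21), the AMPK subunit PRKAG1 (-0.19 ± 0.13) and PDPK1, the kinase that activates AKT (-0.16 ± 0.11), had adjusted p of 0.556, 0.566 and 0.574. With 1 animal left out they ran from -0.49 to -0.11 for PPARGC1A, from -0.27 to -0.08 for PRKAG1 and from -0.27 to -0.08 for PDPK1. The other probe set of PDPK1 gave -0.39 and that of PRKAG1 -0.18. SLC2A4, the insulin-regulated glucose transporter, had 3 probe sets, none of which passed the filter on low values.

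**Figure D4:**
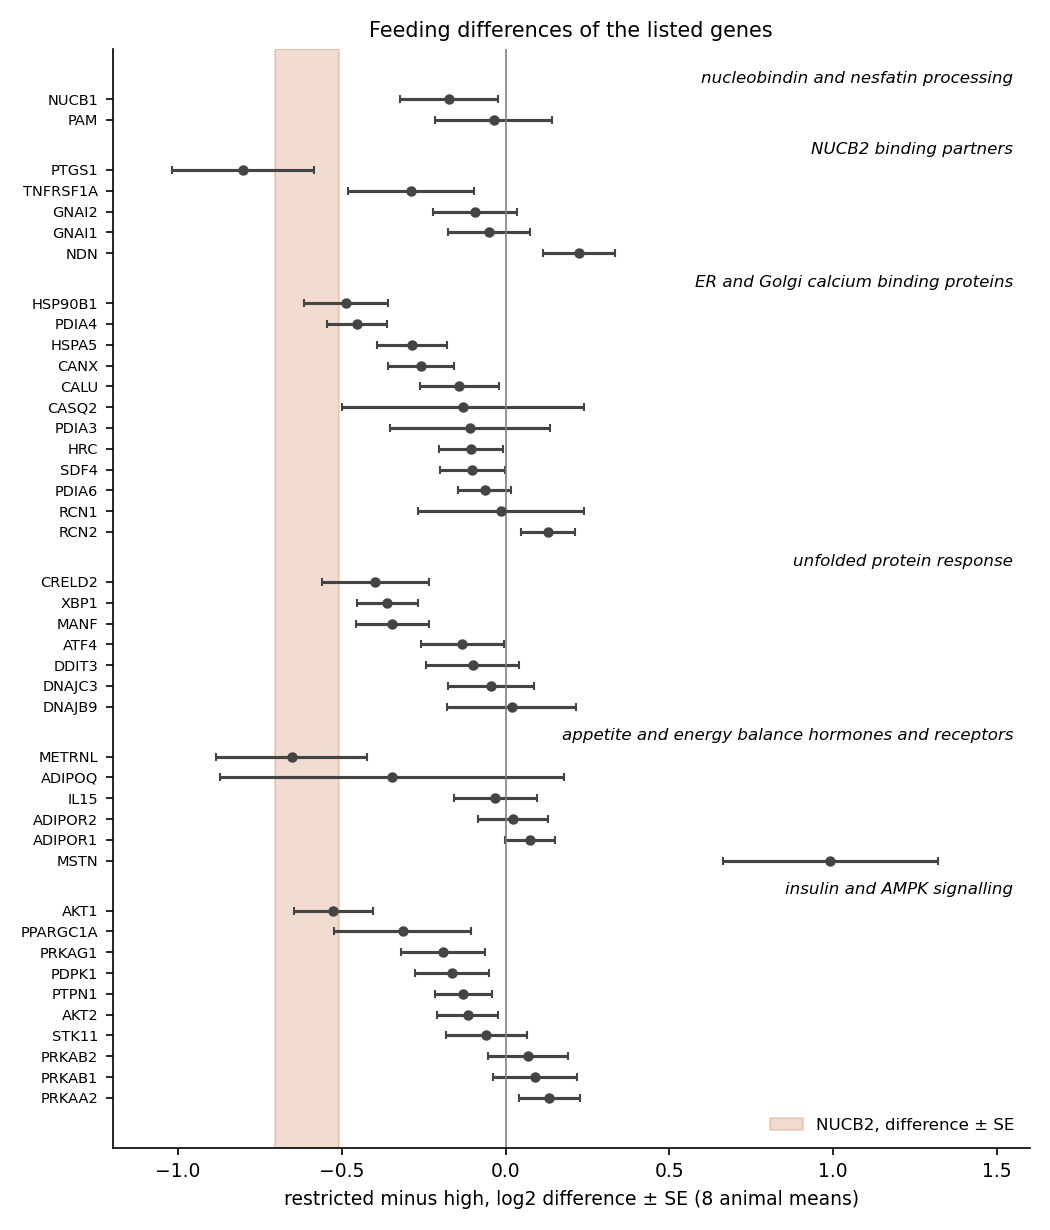
Restricted minus high log2 difference over both muscles with its SE (horizontal axis, 8 animal means) for each tested gene of the 6 lists, with the NUCB2 value of -0.61 ± 0.10 as a shaded band. None of the genes shown passed the adjusted threshold. Left of zero lie 11 of 12 endoplasmic reticulum and Golgi genes and 6 of 7 unfolded protein response genes. Over all genes other than NUCB2, 2790 of 4570 had a negative difference.

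The genes whose profile over the arrays was most like that of NUCB2 were found by the root mean square difference of log2 profiles, each centred on its mean over 16 arrays. The median over 4570 genes was 0.42, and the root mean square of NUCB2 about its own mean was 0.36. The nearest were TALDO1, transaldolase of the pentose phosphate pathway (0.17), P4HA2, a collagen prolyl hydroxylase of the endoplasmic reticulum (0.20), and RRAGC, a GTPase of amino acid signalling to mTORC1 (0.20). ARHGAP35 (0.20) and POLR2H, an RNA polymerase subunit (0.21), followed. XBP1 (0.22), PPP1R11, an inhibitor of protein phosphatase 1 (0.22), and SAP30BP (0.22) completed the 8. With profiles centred within each muscle, TALDO1 (0.16), P4HA2, PPP1R11, RRAGC and ARHGAP35 were again among the 8, beside WAPL, a cohesin release factor (0.18), TMEM167A (0.20) and PDIA4 (0.20).

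TALDO1 measured 8.44 to 8.85 in restricted psoas and 9.13 to 9.51 in psoas at high feeding, and 8.33 to 8.75 and 8.61 to 9.50 in restricted and high-feeding diaphragm. Like NUCB2, for whose profile it was chosen, TALDO1 separated the feeding levels in psoas and overlapped in diaphragm. Psoas groups did not overlap, in either direction, at 4.98% of tested probe sets. P4HA2 measured 6.13 to 6.49 in restricted psoas and 6.81 to 7.49 at high feeding, and 6.44 to 6.76 and 6.81 to 7.44 in restricted and high-feeding diaphragm. Its groups did not overlap in either muscle, and the share of tested probe sets with this was not counted. The other P4HA2 probe set had a smaller difference over both muscles (-0.34 against -0.62). Since these genes were chosen for a profile like that of NUCB2, their feeding differences are descriptions. All 16 points share the animals and the arrays.

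**Figure D5:**
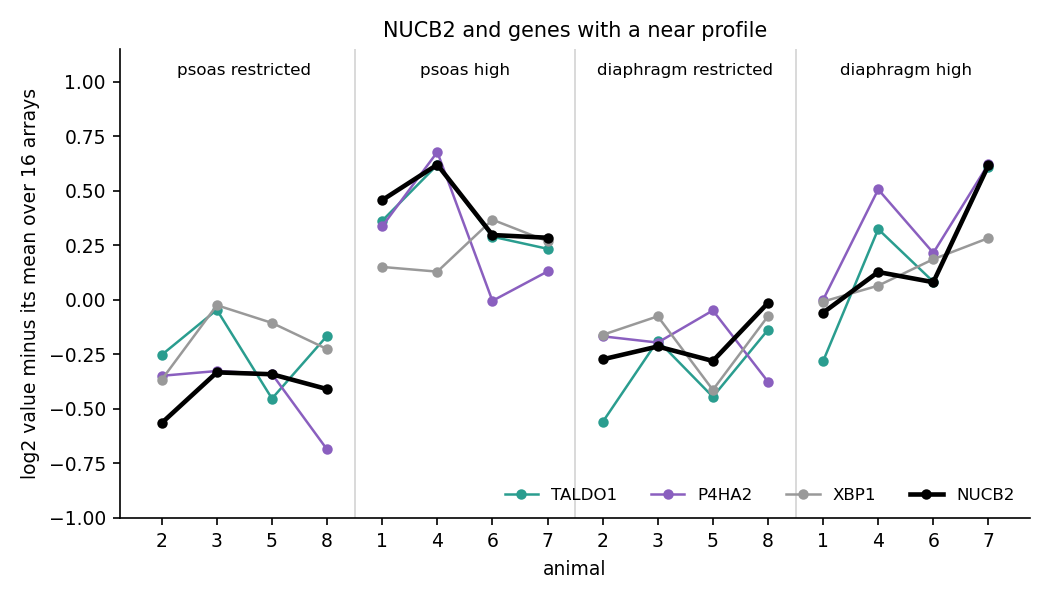
Log2 value minus its mean over the 16 arrays (vertical axis) for NUCB2 in black and for TALDO1, P4HA2 and XBP1, with arrays along the horizontal axis by group and animal. All 4 genes lie below zero on every restricted psoas array, and NUCB2 lies above zero on every psoas array at high feeding.

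On chromosome 2 of assembly Sscrofa11.1, the nearest annotated genes are KCNJ11 and ABCC8, subunits of the ATP-sensitive potassium channel, on one side and PIK3C2A on the other. Of the 10 nearest neighbours, 5 on each side, only MYOD1 and RPS13 had a probe set with a single symbol. MYOD1, a master regulator of myogenesis, measured 4.97 to 5.61 in restricted psoas and 4.62 to 5.01 in psoas at high feeding, with a feeding difference over both muscles of 0.24 ± 0.13 (SE, limma adjusted p = 0.474) and 0.14 to 0.32 with 1 animal left out. RPS13, a ribosomal protein gene, differed by -0.00066 ± 0.08 (adjusted p = 0.997), a sign that turned under array median centring (0.02) and without animal 5 (0.03) or animal 7 (0.03). Neither neighbour had a negative feeding difference of the size seen for NUCB2.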

How the data were processed

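Per the labels' protocols, RNA was extracted with the RiboPure kit from muscle kept frozen, and biotin-labelled for Affymetrix porcine arrays. The deposited values are log2 expression per probe set, made by the authors with GCRMA per the submitters' processing notes, and its version is not given in the sources used here. They were used as deposited. The 124 control probe sets were left out. Probe sets at or above 4 in at least 4 arrays were fitted with limma 3.58.1 (R 4.3.3), with Benjamini-Hochberg adjustment over 11467 probe sets. The covariate was sex in feeding comparisons and feeding level in sex comparisons, and the muscle difference had both. Feeding over both muscles and sex used animal means, feeding within a muscle its 8 arrays, the muscle difference all 16 arrays, and its dependence on sex or feeding each animal's difference. Muscles were matched by the labels' animal numbers for animal means and differences, while the muscle difference was fitted without the animal as a block. The 8 residual correlations between the muscles of 1 animal were 0.07 to 0.26. A gene with several probe sets is given by the brightest. Named genes were those of the lists with the largest feeding differences (up to 4 for each list), the 8 nearest profiles and the neighbours with a probe set. Members and lists were chosen with earlier results of these data known. The scripts were tested on simulated data for some of the comparisons, with arrays drawn independently and no correlation between the muscles of an animal.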

Additional observations from a re-analysis of the deposited data

Results flagged for a closer look

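No group of NUCB2 values held an animal far from the other 3. Among 136 groups of 4 arrays of the named genes, 10 held an array whose gap to its nearest neighbour took up most of the group's range, past Dixon's critical value, and chance gives about 1 in 20. In diaphragm at high feeding, animal 1 was low for PDIA4 (0.889 of the range, 6.997 against 7.54 to 7.60) and for ARHGAP35 (0.855, 9.17 against 9.53 to 9.59), and animal 7 was low for PRKAG1 (0.908, 8.24 against 8.45 to 8.47). In psoas at high feeding, animal 1 was low for NUCB1 (0.965, 7.15 against 7.43 to 7.44) and high for ADIPOQ (0.912, 3.02 against 2.17 to 2.25, all below 4). In restricted diaphragm, animal 2 was low for PTGS1 (0.965, 2.96 against 4.30 to 4.35) and animal 8 was low for CRELD2 (0.915, 4.05 against 4.92 to 4.9999). In restricted psoas, animal 8 was low for P4HA2 (0.939, 6.13 against 6.47 to 6.49). Animal 3 was high there for WAPL (0.851, 7.61 against 7.38 to 7.41) and for MYOD1 (0.966, 5.61 against 4.97 to 4.99).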

How the results depend on the processing

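The feeding difference of NUCB2 was negative under every alternative run, and leaving out 1 animal gave -0.66 to -0.56 over both muscles, -0.87 to -0.75 in psoas and -0.47 to -0.26 in diaphragm. In diaphragm it was -0.20 within animals 1, 2, 3 and 5. Its muscle difference of 0.0033 turned to -0.028 with actin as covariate, to -0.0047 within animals 4, 6, 7 and 8, and ranged from -0.070 to 0.060 with 1 animal left out. Its sex difference turned to -0.0093 with the grouping of animals 1, 2, 3 and 5 as covariate. With that covariate 12 probe sets were called for sex and 3 for the sex difference of the muscle difference, against 21 and 0. With the replicate block, which pairs the muscles of an animal, 39 were called for sex, and no feeding count and no NUCB2 call changed. For feeding, calls numbered 1 in diaphragm and 2 in psoas without the filter, and 2 in diaphragm without the covariate. With 1 animal left out they numbered 0 to 1 over both muscles, 0 to 2 in diaphragm and 0 to 1 in psoas, and 13 to 23 for sex. Of the other named genes, NUCB1 turned to 0.051 with the grouping covariate. Leaving out 1 animal gave PAM -0.16 to 0.14, ADIPOQ -0.75 to 0.11 and RPS13 -0.030 to 0.033. RPS13 was also 0.025 with array median centring, and 0.0041 and 0.0042 with the actin and grouping covariates. The cause of these changes was not tested. Another NUCB2 probe set could not be tried, as there was 1. The 4 animals in each group limit the precision.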
